A study of Homo sapiens with 6 samples.

Results

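MIR21, MIR23B and MIR27B are human microRNA genes that lie inside protein-coding genes, MIR21 in VMP1 and both others in AOPEP. These 5 genes were taken by the symbols that the platform annotation gives to the array features. Each had 1 feature, so 5 of 53617 features and 5 of 14884 named genes are described. The microRNA genes were chosen because earlier results of these arrays showed them far lower after heating at 44 °C, and the host genes were chosen by position. Values of the 5 genes at 44 °C are therefore a description and carry no test.

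A microRNA is cut in steps from a longer primary transcript: a nuclear complex of DROSHA and DGCR8 releases a hairpin, XPO5 exports it, and DICER1 trims it to a mature strand that guides an AGO protein to matching messenger RNAs. The seed at the 5′ end of the mature strand does most of the pairing. MiR-21 is abundant in many tumours, lung cancers included, and represses growth-restraining genes such as PDCD4. MiR-23b and miR-27b come from a cluster that also holds MIR24-1 and has a paralogous copy, MIR23A, MIR27A and MIR24-2, on another chromosome. MIR21 has been described with a promoter of its own inside VMP1. VMP1 encodes an endoplasmic reticulum membrane protein needed for autophagy, and AOPEP encodes an aminopeptidase.

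The cells were A549, an established human lung adenocarcinoma line. The 6 arrays form 6 groups of 1 array: 3 Gy of X-rays at 37 °C, heat at 41.5 °C, heat at 44 °C, each heat followed at once by 3 Gy of X-rays, and an untreated control at 37 °C. All cells first grew for 24 h at 37 °C. Heat lasted 1 h, and cells given heat alone or X-rays alone then spent 3 h at 37 °C, whereas the labels give no such time for the control or the combined treatments. Values are RMA signals on the log2 scale, on which a difference of 1 is 2-fold. They rank no feature above another, since each has its own probes.

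Array medians lay between 4.39 and 4.46, and correlations between arrays across all features between 0.970 and 0.989. Of 5 measured epithelial markers, KRT18, KRT7, KRT8 and EPCAM had signals of 5.92 to 11.59 and KRT19 of 4.33 to 4.54. The 6 alveolar type II markers ran from 3.35 to 5.44, with SFTPC between 3.99 and 4.62 and SFTPB between 4.90 and 5.44. The leukocyte marker CD14 had 4.89 to 5.81, the fibroblast marker DCN 1.72 to 2.28 and the 3 endothelial markers 2.92 to 4.43. Of 16 measured markers of epithelial, alveolar, leukocyte, endothelial and fibroblast cells, 0 passed limma's test at 44 °C against 37 °C, a test that 6.11% of all genes passed (adjusted p under 0.05). An unadjusted p under 0.05 was found for 3 of the 16 (18.8%), and for 20.5% of all genes. At 44 °C against 41.5 °C 3 of the 16 passed, CD14 (0.77 ± 0.13, adjusted p = 0.00362), EPCAM (0.45 ± 0.11, adjusted p = 0.0249) and KRT7 (-0.40 ± 0.10, adjusted p = 0.023), where 12.1% of all genes did. Their part in the results below was not tested. In whole-culture RNA, fewer cells of a kind and less RNA per cell cannot be told apart.

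The array signals give no separate level of the mature microRNA strands. The sequences of these strands are shown first, because the microRNA genes that fell and those of the paralogous cluster differ little in them. They are RefSeq sequences on GRCh38.p14, with the seed (bases 2 to 8) in capitals:
hsa-miR-21-5p: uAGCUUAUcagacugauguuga
hsa-miR-23b-3p: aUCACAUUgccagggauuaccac
hsa-miR-23a-3p: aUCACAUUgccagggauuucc
hsa-miR-27b-3p: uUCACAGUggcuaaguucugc
hsa-miR-27a-3p: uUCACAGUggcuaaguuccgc

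MiR-23b and miR-23a share the seed UCACAUU and differ over the 21 bases compared by A19U, counted from the 5′ end with the miR-23b base first. MiR-27b and miR-27a share the seed UCACAGU and differ by U19C in the same notation. The 23 and 27 seeds differ from each other by U7G, whereas the miR-21 seed AGCUUAU belongs to another family. The hairpins are longer, and the copies were not compared over them. Those of MIR21, MIR23B and MIR27B are printed with the mature strand in capitals. Which stretch of the hairpin or of the longer primary transcript the array probes read is not known here:
MIR21: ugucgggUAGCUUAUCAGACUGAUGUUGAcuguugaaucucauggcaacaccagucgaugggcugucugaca
MIR23B: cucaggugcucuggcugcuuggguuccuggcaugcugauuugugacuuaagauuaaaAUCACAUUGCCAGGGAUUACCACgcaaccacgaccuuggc
MIR27B: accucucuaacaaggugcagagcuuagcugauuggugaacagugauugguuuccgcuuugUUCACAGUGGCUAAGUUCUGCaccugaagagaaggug

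The MIR21 hairpin of 72 bases lies at chr17:59841266-59841337, on the plus strand like VMP1 and 133.6 kb after the VMP1 start. The hairpins of MIR23B (chr9:95085208-95085304) and MIR27B (chr9:95085445-95085541), each of 97 bases, also lie on the plus strand, the strand of AOPEP, with 140 bases between them. They stand 358.5 kb after the first of the AOPEP starts listed by RefSeq and 164.0 kb after the other. These positions belong to the RefSeq sequences. The sources used here name no build for the array probes.

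MIR21 was lower at 44 °C than in any array at 37 or 41.5 °C. Its log2 signal at 37 °C was 7.81 with and 8.04 without X-rays. At 41.5 °C it was 8.34 with and 8.32 without X-rays, and at 44 °C it was 5.47 with and 5.91 without. The 44 °C arrays thus lay more than 1 log2 unit below all the others, and the 41.5 °C arrays were the highest. The difference of 44 °C from 37 °C was -2.23 ± 0.11 (SE, 2 arrays at each temperature), or 4.69-fold lower, and it was -2.33 with X-rays and -2.13 without. Of 14884 genes ranked from the largest fall, MIR21 stood at place 2 in this comparison and at place 1 for 44 °C against 41.5 °C (-2.64 ± 0.11).

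VMP1, the host of MIR21, held nearly the same signal in every array. At 37 °C it was 11.46 with and 11.37 without X-rays, at 41.5 °C 11.32 and 11.33, and at 44 °C 11.23 and 11.28. The whole range was 0.23, against 2.86 for MIR21. The difference of 44 °C from 37 °C was -0.16 ± 0.07, negative in both pairs of arrays (-0.23 with X-rays and -0.09 without). The MIR21 difference minus the VMP1 difference was -2.10 in the pair with X-rays and -2.04 in the pair without.

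MIR27B had the largest fall of all 14884 genes at 44 °C against 37 °C. Its signal at 37 °C was 6.75 with and 7.03 without X-rays, at 41.5 °C 6.36 and 6.57, and at 44 °C 4.03 and 3.84. The order of the temperatures was the same with and without X-rays, 37 °C being highest and 44 °C lowest. At 44 °C the feature lay below the array medians, and in the other 4 arrays above them. The difference of 44 °C from 37 °C was -2.95 ± 0.14, or 7.74-fold lower, and that of 44 °C from 41.5 °C -2.53 ± 0.14.

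MIR23B, whose hairpin precedes that of MIR27B, fell less and varied more at 37 °C. There its signal was 6.45 with and 7.01 without X-rays, at 41.5 °C 6.89 and 6.84, and at 44 °C 5.16 and 5.00. The 44 °C arrays were again the lowest, while the 37 °C arrays stood on either side of those at 41.5 °C. The difference of 44 °C from 37 °C was -1.65 ± 0.16, or 3.14-fold lower. It was -1.29 with X-rays and -2.01 without, so its size rested on which 37 °C array was used: -1.32 without the control and -1.98 without the irradiated 37 °C array.

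AOPEP, the host of both, was also lower at 44 °C, unlike VMP1. Its signal at 37 °C was 7.10 with and 7.37 without X-rays, at 41.5 °C 7.16 and 7.20, and at 44 °C 6.22 and 6.26. The 44 °C arrays lay apart from the rest by more than 0.8. The difference of 44 °C from 37 °C was -0.99 ± 0.10, or 1.99-fold lower, which ranked at place 32 from the largest fall. The MIR27B difference minus the AOPEP difference was -1.84 in the pair with X-rays and -2.08 in the pair without. For MIR23B it was -0.42 with X-rays and -0.90 without.

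**Figure D1:**
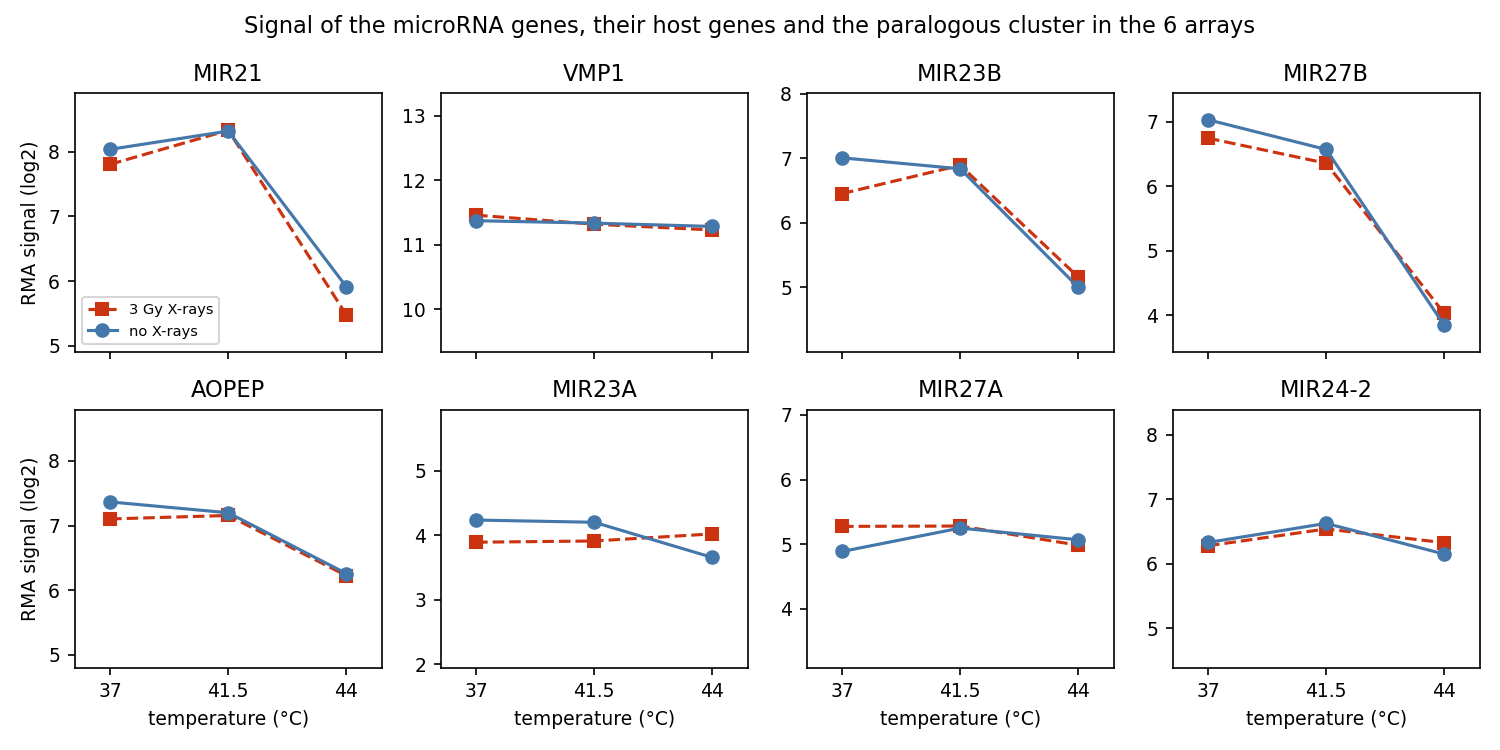
RMA signal (log2) of MIR21, VMP1, MIR23B, MIR27B, AOPEP and the paralogous cluster at 37, 41.5 and 44 °C, with 3 Gy of X-rays (squares) and without (circles), 1 array a point. Every panel spans 4 log2 units: MIR21, MIR23B, MIR27B and AOPEP drop at 44 °C, whereas VMP1 keeps within 0.23.

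The other microRNA genes of the AOPEP locus and of the paralogous cluster had smaller differences at 44 °C, some of them from low signals. MIR24-1, the third member of the cluster, had signals of 1.86 to 2.69, below the lower quartile of every array (3.12 to 3.13). MIR2278, which also lies in AOPEP, differed by -0.25 at 44 °C. The difference of 44 °C from 37 °C was -0.23 ± 0.20 for MIR23A, -0.06 ± 0.15 for MIR27A and -0.07 ± 0.11 for MIR24-2. None of these 3 passed limma's test (adjusted p = 0.5997, 0.894 and 0.806, in that order), and MIR23A, whose signals of 3.65 to 4.23 lay below every array median and left little room for a fall, had opposite signs in the pairs with and without X-rays (0.13 and -0.58). MIR27A lay between 4.88 and 5.28 in all 6 arrays, against 3.84 to 7.03 for MIR27B.

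Neighbouring genes were examined for a fall spread along the chromosome. Of the 12 nearest measured genes, 3 on each side of each host, 1 was lower and 0 higher at 44 °C against 37 °C. Over all genes 2.54% were called lower and 3.57% higher. It was HEATR6, beyond VMP1 (-0.33 ± 0.08, adjusted p = 0.0489 in limma), and the call was lost without the control, the irradiated 37 °C array or either 44 °C array, without trend and in the fit over all features (adjusted p = 0.0635 to 0.356). On the AOPEP side, PTCH1, the Hedgehog receptor and nearest measured gene after AOPEP, differed by 0.09 ± 0.11 and ZNF169 by -0.59 ± 0.16 (adjusted p = 0.061). The 12 differences ran from -0.59 to 0.23 with a median of -0.07, against a median of -0.04 over all genes. At 41.5 °C against 37 °C 2 of the 12 fell and 0 rose, where 1.1% of all genes fell and 2.18% rose. They were GDPD1 (-0.89 ± 0.13, adjusted p = 0.00576) and DHX40 (-0.38 ± 0.09, adjusted p = 0.0469), both before VMP1, which itself differed by -0.09. At 44 °C against 41.5 °C 2 of the 12 were higher and 1 lower, where 4.9% of all genes were higher and 7.23% lower. YPEL2 (0.85 ± 0.16, adjusted p = 0.00708) and GDPD1 (0.64 ± 0.13, adjusted p = 0.0096) were higher, and HEATR6 was lower (-0.66 ± 0.08, adjusted p = 0.000756).

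Across the array, 388 named microRNA genes lie within a measured protein-coding gene by RefSeq position, in 343 hosts. Of these, 242 are known to lie on the same strand as the host, and the others lie on the opposite strand or have no strand recorded here. Without MIR21, MIR23B and MIR27B, the median difference of 44 °C from 37 °C was -0.07 for 385 microRNA genes and -0.06 for their hosts. The microRNA minus host difference of these 385 had a median of -0.02, with 90% of values between -0.67 and 0.57 (5th and 95th percentiles). MIR21 (-2.07) and MIR27B (-1.96) had the lowest values of all 388, while MIR23B (-0.66) stood at place 25 and within that interval. At least a 2-fold fall in both pairs of arrays was seen for 8 of the 388 microRNA genes, the 3 described here among them, and for 0 of their hosts. Over all genes 0.114% fell that far in both pairs, and the 3 microRNA genes were chosen for it. At least a 2-fold rise in both pairs was seen for 4 of the 388, where 0.887% of all genes rose that far. Without the 3, 5 of the 385 fell and 4 rose at least 2-fold in both pairs.

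After MIR21 and MIR27B, the largest gaps below a host belonged to MIR548L in MRE11 (-1.58, shared strand not known here), MIR3126 in ANTXR1 (-1.11) and MIR3189 in GDF15 (-1.05). MIR548L differed by -1.28 in the pair with X-rays and -2.16 in the pair without, while MRE11, a nuclease of DNA break repair, differed by -0.13. MIR3189 differed by -2.001 with X-rays and -0.66 without. GDF15, a stress-induced cytokine, differed by -0.84 with X-rays and 0.28 without, so that both values of this pair depended on the arrays compared.

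**Figure D2:**
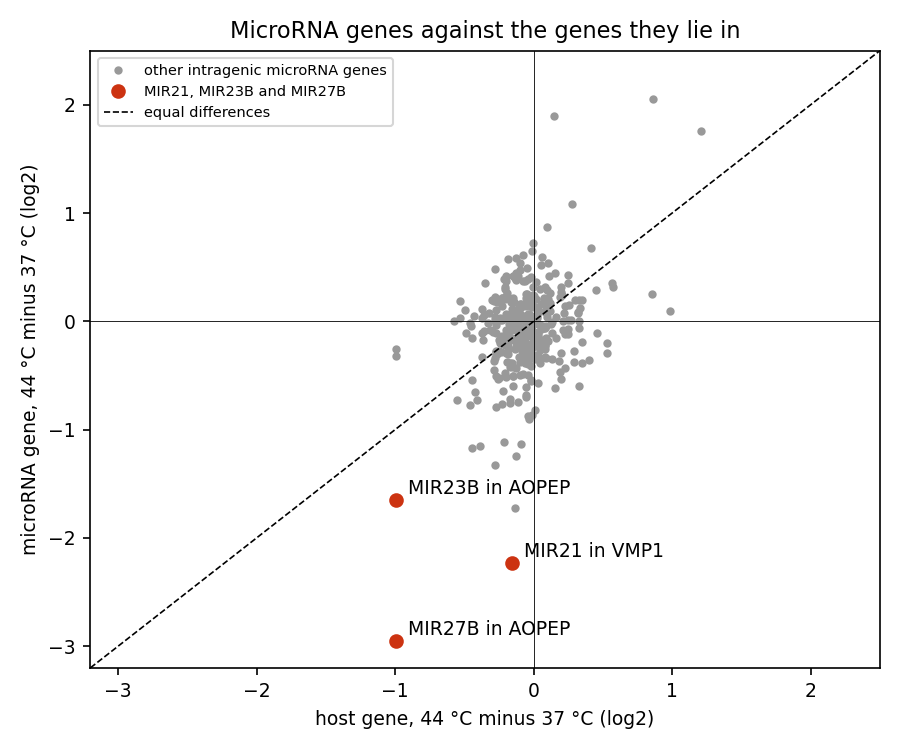
Difference of 44 °C from 37 °C (log2, limma estimate) of 388 microRNA genes on the vertical axis against that of the gene each lies in on the horizontal axis. MIR21 and MIR27B lie farthest below the dashed line of equal differences, at -2.07 and -1.96.

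Among all 1072 named microRNA genes, 50 were called lower and 29 higher at 44 °C against 37 °C in limma, with 2.54% and 3.57% of all genes called in these directions. The median over microRNA genes was -0.06, against -0.04 over all genes. Of the 17 genes that were at least 2-fold lower in both pairs of arrays, 11 were microRNA genes: MIR27B, MIR21, MIR1206, MIR548L, MIR23B, MIR545, MIR3126, MIR3942, MIR491, MIR548V and MIR582. At least a 2-fold rise in both pairs was seen for 132 genes (0.887% of all), 10 of them microRNA genes. MicroRNA features thus moved in both directions, and their centre stayed near that of all genes. Their shares were uneven, however: with 1072 of 14884 genes, they made up 11 of the 17 large falls and 10 of the 132 large rises. MIR21, MIR23B and MIR27B, among the 11, were chosen for their fall.

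**Figure D3:**
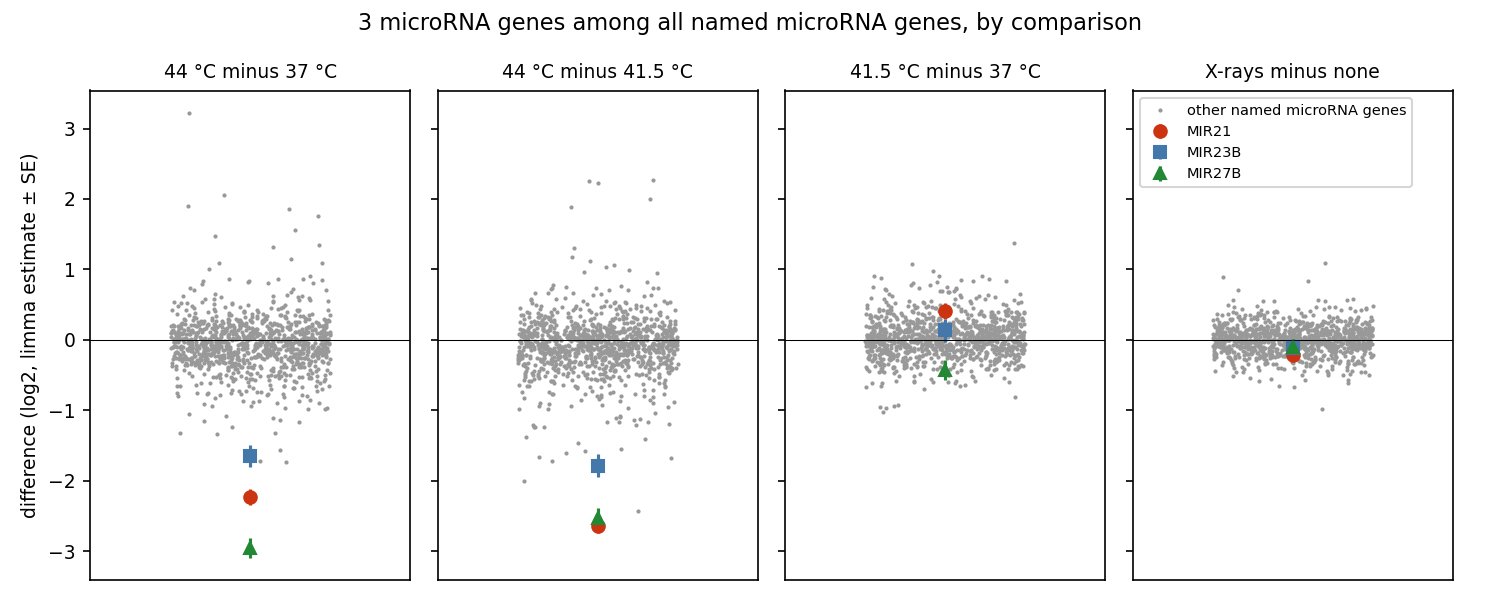
Differences (log2, limma estimate) of the 1072 named microRNA genes in 4 comparisons, grey points, with MIR21, MIR23B and MIR27B marked and their SE as bars. The 3 lie at the lower edge at 44 °C against 37 or 41.5 °C and inside the cloud for 41.5 °C against 37 °C and for X-rays.

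The comparison of 41.5 °C with 37 °C holds no 44 °C array, but it shares the 37 °C arrays with the comparison that chose the microRNA genes, so its p-values are not independent of that choice. None of the 5 passed limma's test over 14884 genes, of which 3.29% were called. An unadjusted p under 0.05 was found for 2 of the 5, and for 17.1% of all genes. MIR21 was higher in both pairs, by 0.53 with X-rays and 0.28 without, which gave 0.41 ± 0.11 (adjusted p = 0.0843, unadjusted p = 0.0044). MIR27B was lower in both, at -0.39 with X-rays and -0.46 without (-0.42 ± 0.14, adjusted p = 0.142, unadjusted p = 0.0117). Their values had opposite signs. VMP1 (-0.09 ± 0.07, adjusted p = 0.586), MIR23B (0.13 ± 0.16, adjusted p = 0.754) and AOPEP (-0.06 ± 0.10, adjusted p = 0.851) differed by little more than their SE or less. MIR21 was called when only genes above the median level were tested (adjusted p = 0.0493). Leaving out the unirradiated 41.5 °C array called 1 of the 5, and leaving out either 44 °C array called 2, MIR21 at adjusted p down to 0.0238 and MIR27B down to 0.0427.

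X-rays gave no called gene in limma among the 5, and 0.0% of all 14884. That share depended on the 44 °C arrays: with either of them left out, some of the 14884 were called, though none of the 5. An unadjusted p under 0.05 was found for 733 genes (4.92%), close to the share that this threshold gives with no difference at all. MIR21 alone of the 5 was among them. The mean X-ray difference over 3 temperatures was -0.22 ± 0.09 for MIR21, 0.00 ± 0.06 for VMP1, -0.11 ± 0.13 for MIR23B, -0.10 ± 0.11 for MIR27B and -0.11 ± 0.08 for AOPEP (adjusted p = 0.997 or above for each). For MIR21 it was -0.23 at 37 °C, 0.01 at 41.5 °C and -0.44 at 44 °C. The largest X-ray difference of any of the 5 at 1 temperature, -0.55 for MIR23B at 37 °C, was smaller than the 44 °C fall of MIR21, MIR23B, MIR27B or AOPEP in either pair. The departure of the combined treatment from the sum of heat and X-rays, a value from single arrays with no test, was largest for MIR23B, at 0.61 for 41.5 °C and 0.71 for 44 °C, and both values take in its low signal in the irradiated 37 °C array.

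Most measured genes that make or degrade microRNAs did not pass the test. Of 29 listed genes of microRNA processing, export, silencing and decay, 19 were measured. At 44 °C against 37 °C 1 rose and 1 fell, where 6.11% of all genes passed, and the list median was -0.01. An unadjusted p under 0.05 was found for 10 of the 19 (52.6%), and for 20.5% of all genes. DGCR8, the partner of DROSHA, had 5.39 with and 5.23 without X-rays at 44 °C, against 5.78 and 5.94 at 37 °C. It fell by 0.55 ± 0.12 (adjusted p = 0.0272 in limma) and its difference from 41.5 °C was -0.85 ± 0.12 (adjusted p = 0.00173). In that comparison 1 of the 19 rose and 2 fell, where 4.9% of all genes were higher and 7.23% lower. TENT4B, a polymerase that adds adenines to miR-21 before its decay, rose by 0.52 ± 0.10 (adjusted p = 0.0154). XPO5, the exporter of hairpins, differed by -0.22 ± 0.09 (adjusted p = 0.173), and PARN, which trims adenylated RNA, by -0.16 ± 0.07 (adjusted p = 0.248). Leaving out the control, or the unirradiated 44 °C array, ended the calls of both DGCR8 and TENT4B, and leaving out the irradiated 37 °C array ended that of DGCR8 (adjusted p = 0.118 to 0.329).

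Factors known to act at the MIR21 promoter were mostly higher at 44 °C than at 37 °C. Of 13 listed and measured, 8 rose and 0 fell, with a median of 0.77 against -0.04 over all genes, and 3.57% of all genes rose. Like the other lists here, this one was chosen with earlier results of these data known, and it holds mostly JUN and FOS family genes. Its counts and p-values therefore describe these arrays and are no independent test of the list. JUN, a subunit of AP-1, had 8.98 with and 8.95 without X-rays at 44 °C, against 6.22 and 6.32 at 37 °C, and rose by 2.69 ± 0.09 (adjusted p = 5.25e-08 in limma). FOS, its partner, rose by 2.12 ± 0.12, and FOSB and EGR1, other immediate early factors, by 4.13 ± 0.11 and 5.55 ± 0.09. With the mean over the features of each gene, the rises were smaller: 1.745 for FOS, 2.865 for FOSB and 4.699 for EGR1. STAT3, which has been described to drive MIR21, had signals of 9.18 to 9.43 in the 6 arrays and differed by -0.11 ± 0.08 (adjusted p = 0.491). SRF, a factor of immediate early genes, rose by 0.42 ± 0.10 (adjusted p = 0.0271), a call lost under median centring, without trend, over all features and without the control or either irradiated array at 37 or 44 °C (adjusted p = 0.0542 to 0.306). At 44 °C against 41.5 °C 5 of the 13 rose and 2 fell, FOSL1 (-0.81 ± 0.11) and ETS1 (-0.46 ± 0.10), with a median of 0.16, where 4.9% of all genes rose and 7.23% fell. At 41.5 °C against 37 °C 5 rose and 1 fell, where 2.18% of all genes rose and 1.1% fell. Among them JUN rose by 1.29 ± 0.09 and FOSL1 by 1.79 ± 0.11, beside the MIR21 value of 0.41. The part of these factors in the MIR21 values was not tested.

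Known targets of miR-21 had a median near that of all genes at 44 °C. Of 13 measured miR-21 targets, 2 rose and 0 fell at 44 °C against 37 °C, where 3.57% of all genes rose and 2.54% fell, and the median was 0.02. They were RHOB, a small GTPase (0.97 ± 0.10, adjusted p = 0.000274 in limma), and SMAD7, a brake on TGF-beta signalling (0.70 ± 0.12, adjusted p = 0.0069). SMAD7 was no longer called without the irradiated array at 37 °C (adjusted p = 0.152) or at 44 °C (adjusted p = 0.0544). At 41.5 °C against 37 °C 4 of the 13 rose and 0 fell, where 2.18% of all genes rose and 1.1% fell: CDC25A (0.63 ± 0.11), SMAD7 (0.60 ± 0.12), TPM1 (0.47 ± 0.09) and RHOB (0.45 ± 0.10). An unadjusted p under 0.05 in limma was found for 5 of the 13 (38.5%) at 44 °C against 37 °C, and for 20.5% of all genes. For 44 °C against 41.5 °C it was found for 9 (69.2%), beside 25.4% of all genes. For 41.5 °C against 37 °C it was found for 8 (61.5%), beside 17.1% of all genes. The part of miR-21 in these values was not tested, and its mature strand was not measured separately. PDCD4, the best known target of miR-21 and an inhibitor of translation, had 7.26 with and 7.17 without X-rays at 44 °C, against 7.41 and 7.22 at 37 °C (-0.10 ± 0.11, adjusted p = 0.720).

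Targets of the AOPEP cluster also centred near the median of all genes. Of 9 measured miR-27 targets 0 were called at 44 °C against 37 °C, where 3.57% of all genes rose and 2.54% fell, and the median was 0.06. An unadjusted p under 0.05 was found for 2 of the 9 (22.2%), and for 20.5% of all genes. FOXO1, a transcription factor of cell cycle arrest, differed by 0.02 ± 0.11. SPRY2, a brake on receptor kinase signalling listed for both miR-21 and miR-27, differed by 0.41 ± 0.11 (adjusted p = 0.0532 in limma) from 37 °C. It was 0.53 ± 0.11 higher than at 41.5 °C (adjusted p = 0.0107). At 44 °C against 41.5 °C 2 of the 9 miR-27 targets rose and 1 fell. In that comparison 5 of the 9 (55.6%) had an unadjusted p under 0.05, as did 25.4% of all genes. Of the 13 miR-21 targets 3 rose and 3 fell there, where 4.9% of all genes rose and 7.23% fell. Of 10 measured miR-23 targets 1 rose, the NF-kappaB kinase subunit CHUK (0.36 ± 0.09, adjusted p = 0.0469), beside the same 3.57% of all genes, with a median of 0.03. That call was lost under either other scaling, without trend, over all features and without the control or either irradiated array at 37 or 44 °C (adjusted p = 0.0514 to 0.328).

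**Figure D4:**
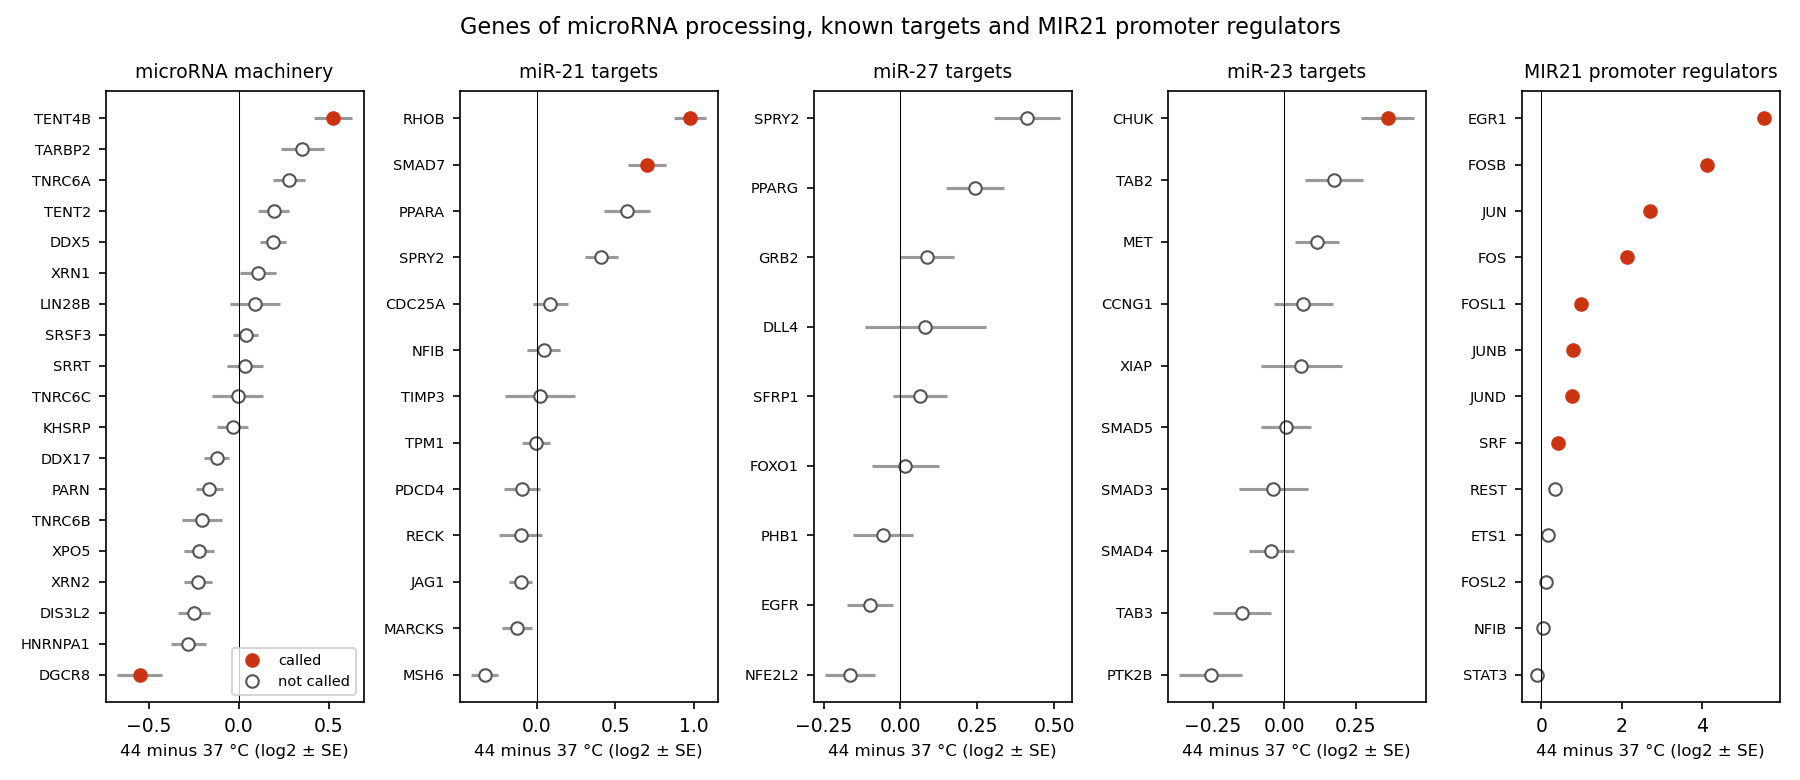
Difference of 44 °C from 37 °C (log2, limma estimate with SE bars) for measured genes of microRNA processing, known targets of miR-21, miR-27 and miR-23, and regulators of the MIR21 promoter, on scales that differ between panels. Filled points passed an adjusted p under 0.05: 2 of 19 processing genes, 3 target genes and 8 of 13 promoter regulators.

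The genes most like MIR21 and MIR27B were sought by Pearson's r over the 6 arrays among 812 other genes with a range of at least 1 log2 unit, a description in which the pair of 44 °C arrays weighs most. The closest to MIR21 were MIR579 (r = 0.988), CCDC71 (r = 0.987), L3HYPDH (r = 0.980), MIR545 (r = 0.975) and MIR23B (r = 0.975), and for VMP1 itself r was 0.675. The closest to MIR27B of all was its own host AOPEP (r = 0.989), before TMEM177 (r = 0.985), EDN1, which encodes the vasoconstrictor endothelin 1 (r = 0.984), MIR548L (r = 0.971) and MIR545 (r = 0.971). MIR21 and AOPEP also reached r = 0.972, so these values mostly carry the fall at 44 °C for which the microRNA genes were chosen. Away from 44 °C, the values of MIR27B and AOPEP were less alike. At 41.5 °C against 37 °C MIR27B had -0.39 with X-rays and -0.46 without, and AOPEP 0.05 and -0.17. Neither gene was called there, and the gap between them, from single pairs of arrays, was not tested. For VMP1, with a range of 0.23, the same minimum range let in only genes that varied far more than VMP1 itself. The closest of these were LCMT1P1 (r = 0.937), MIR3937 (r = 0.928), LURAP1L (r = 0.910), ETAA1 (r = 0.880) and MIR3936 (r = 0.873). Genes as flat as VMP1 were not among the candidates, so its nearest genes were not sought among them.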

How the data were processed

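RNA of 6 A549 samples was measured on Affymetrix arrays. The labels' protocols state random-primed amplification of 300 ng RNA. Per the submitters' processing notes, the authors used Affymetrix Expression Console 1.1 with RMA, and what they deposited is log2 signal, with sorted values of the arrays within 0.11 of their mean. The platform annotation names 1 gene for 16098 of 53617 features. All 16098 matched RefSeq (GRCh38.p14), and 0 symbols changed. The feature with the highest mean was kept for each of 14884 genes. RefSeq positions gave host and neighbouring genes.

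With 1 array in each group, an additive model (temperature factor plus radiation) was fitted with limma 3.58.1 in R 4.3.3, with an intensity trend and 2 residual degrees of freedom, which also hold any interaction. P-values are two-sided, Benjamini-Hochberg adjusted over 14884 genes, called under 0.05. Nothing says that arrays came from separate cultures, so p-values reflect array-to-array spread, which may be technical, and the number of arrays limits the precision (median SE 0.138 between temperatures). The code was tested on simulated data. Genes and lists were chosen with earlier results of these data known. Named were the 5 genes, the microRNA genes of both clusters, 3 neighbours on each side, the 5 most similar genes, list members called at 44 °C (at most 3 in each direction) with a short preset group, and the 5 microRNA genes lowest against their host. FOSL1, ETS1, SRF, PARN, CDC25A, TPM1 and the marker genes were named after their values were seen. Alternatives covered scaling, feature choice, dim genes, moderation, all features and each array left out.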

Additional observations from a re-analysis of the deposited data

Results flagged for a closer look

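MIR23B and MIR27B differed with X-rays in opposite directions at different temperatures, each by at least the median residual SD of 0.138, and the contrast between temperatures was not tested because each value rests on single arrays. MIR23B was lower with X-rays at 37 °C (-0.55) and higher at 44 °C (0.16). MIR27B was lower with X-rays at 37 °C (-0.28) and at 41.5 °C (-0.21) and higher at 44 °C (0.18). The heat difference of MIR23B between 41.5 °C and 37 °C also had opposite signs, 0.44 in the pair with X-rays and -0.17 in the pair without, untested for the same reason.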

How the results depend on the processing

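The falls of MIR21, MIR23B, MIR27B and AOPEP at 44 °C against 37 °C kept their sign in every alternative run. With 1 array left out at a time they ran from -2.39 to -2.07 for MIR21, -1.98 to -1.32 for MIR23B, -3.17 to -2.73 for MIR27B, -1.11 to -0.88 for AOPEP and -0.22 to -0.10 for VMP1. The gap below the host ran from -2.10 to -2.04 for MIR21, -2.08 to -1.84 for MIR27B and -0.90 to -0.42 for MIR23B. Median centring and quantile normalization moved these values by less than 1 residual SD. The count of intragenic microRNA genes at least 2-fold lower was 15 or 16 where 1 pair of arrays was left, so the range was 8 to 16, and it was 4 of those above the median level. It was 6 on the same strand as the host, an alternative chosen after seeing the data.

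Calls were less stable. At 41.5 °C the count of the 5 genes called was 1 among genes above the median level and 0 to 2 with 1 array left out. For X-rays it was 0 throughout. In moderation without trend, and likewise in the fit over all features, 1 miR-21 target rose, 0 miR-23 targets rose, and 0 processing genes rose and 0 fell. Under median centring and quantile normalization 0 miR-23 targets rose. A fall of 1 miR-21 target appeared under median centring, quantile normalization, the mean over features and the filter on dim genes, and a rise of 1 miR-27 target under that filter. With 1 array left out, counts ran from 1 to 4 rises and 0 to 1 falls of miR-21 targets, 0 to 1 rises of miR-23 targets, 0 to 1 rises of miR-27 targets, and 0 to 1 rises and 0 to 2 falls of processing genes. With 1 array left out, the sign turned for AOPEP at 41.5 °C against 37 °C (-0.17 to 0.056, positive without the control), MIR23B at 41.5 °C (-0.20 to 0.46, negative without the irradiated 37 °C array) and, for X-rays without either 37 °C array, MIR23B (-0.25 to 0.11) and VMP1 (-0.036 to 0.035). None of these was called, and the cause was not tested. Over all genes, calls at 44 °C numbered 910, and 405 without trend, 379 over all features and 263 to 1212 with 1 array left out (263 without the control, 271 without the irradiated 37 °C array). At 41.5 °C they numbered 489, and 9, 14 and 19 to 800 in that order (38 without the control, 19 without the irradiated 37 °C array), so the shares of all genes given beside the counts move with these settings. At 44 °C against 41.5 °C they numbered 1805, and 791, 636 and 1024 to 1299. For X-rays they numbered 0, and 1 under median centring, the mean over features and the filter on dim genes. The 0 for X-rays did not hold when any 41.5 or 44 °C array was left out. Arrays matched on X-rays were compared through the radiation term of the model. Replicate numbers pair no arrays, since each group has 1.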
